A study of Drosophila melanogaster with 3 samples.

Results

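The genes described here encode 9 RNA-binding proteins of the hnRNP type in Drosophila melanogaster: Syp, sqd, Hrb27C, Hrb98DE, Hrb87F, glo, bl, heph and sm. They were chosen as a protein family, by name, and they are 9 of 13959 protein-coding genes. Looked up by symbol and synonym, 4 of the 9 (Syp, sqd, Hrb27C and Hrb98DE) stood on the authors' list of 1829 FMRP target genes, and 5 (Hrb87F, glo, bl, heph and sm) did not. On that list stood 11.2% of all protein-coding genes, and since the family was picked with the list in view, nothing is read from the difference. The gene table lists bl under the name HnRNP-K, with bl and Bancal among its synonyms.

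The study mapped RNA contacts of FMRP by enhanced CLIP, in which RNA crosslinked to a protein by ultraviolet light is recovered with that protein and sequenced. There were 2 FMRP immunoprecipitates on FLAG beads, whose cell type is labelled as intestinal progenitors, and 1 size-matched input, whose cell type is labelled as all cells. Every library came from adult whole animals, with 200 flies pooled per sample (100 male and 100 female) and ground before the ultraviolet exposure. The labels give no genotype, no driver of the tagged protein and no age in days. The deposited data are 1 list of 60497 sites, each 1 nt wide with a strand and a score, and 1 list of target names, both for the series as a whole. Depth is unknown, no value per library was used, and no difference between immunoprecipitate and input, or between the immunoprecipitates, could be tested. Everything below is therefore a description of these lists. In whole-animal RNA, contacts in fewer cells and fewer contacts per cell cannot be told apart. Of the marker genes listed for cell types, 9 of 12 for progenitors, 5 of 7 for enterocytes, 5 of 9 for muscle, 2 of 5 for neurons and 5 of 5 for ovary were targets, with up to 436, 121, 31, 41 and 18 sites in a gene; N and klu had 2 and 1 sites and Su(H) had 0. Among all protein-coding genes 11.2% were targets, and the median number of sites was 0. The marker lists were chosen with earlier results of these data known, so nothing is read from the difference. The part of these cell types in the contacts described below was not tested.

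As background, hnRNP proteins coat nascent and mature transcripts and govern splicing, export, localisation and translation of the mRNAs they bind. Many of them regulate their own mRNA or that of a relative, and several fly members were found in the transport of maternal mRNAs in the oocyte. FMRP, the protein lost in human fragile X syndrome, binds RNA through KH domains and associates with polysomes. In the fly intestine the progenitors are the stem cells and their undifferentiated daughters.

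FMRP sites were unevenly divided among the 9 genes. Together they held 759 sites, 1.25% of the list, of which 730 lay in Syp, sqd and Hrb27C. Syp held 342 sites, sqd 201, Hrb27C 187 and Hrb98DE 26. The genes glo, bl and heph held 1 site each, and Hrb87F and sm held 0. No gene had a count between 1 and 26, so by count the family fell into 3 genes with many sites, 1 with 26 and 5 with 0 or 1. At least 1 site was found in 7 of the 9, against 16.4% of protein-coding genes, and at least 10 in 4 of the 9, against 8.21%.

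**Figure D1:**
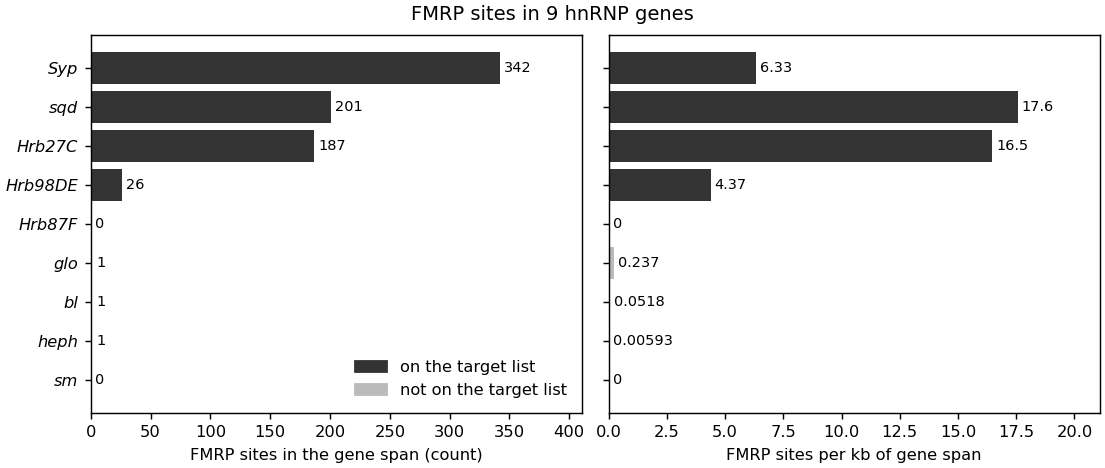
FMRP sites in each of the 9 hnRNP genes, as a count in the gene span (left) and per kb of span (right); dark bars are genes on the target list and grey bars genes that are not. Syp has the most sites (342), whereas sqd and Hrb27C have the most per kb (17.6 and 16.5), and Hrb87F, glo, bl, heph and sm have 0 or 1.

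Per length the order changed. sqd had 17.6 sites per kb of genomic span and Hrb27C 16.5, with spans of 11443 and 11354 nt. Syp, with a span of 53998 nt, had 6.33 sites per kb, and Hrb98DE, with 5944 nt, had 4.37. Over the 1560 protein-coding targets the median was 2.53 sites per kb, with quartiles of 1.02 and 6.27, so all 4 lay above the median and Syp lay just above the upper quartile. By count, Syp ranked 7 among these targets, sqd 35, Hrb27C 44 and Hrb98DE 571. By sites per kb they ranked 387, 91, 104 and 526. Genomic span includes introns, whose share in each gene was not analysed here, so densities between genes carry that difference.

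Scores in the contacted members spread over a wide range. The authors gave each site this value without naming its unit, and it serves here only to describe and rank sites within their list. Syp sites ranged from 0.00963 to 54.2 with a median of 4.99, sqd sites from 0.0729 to 45.9 with a median of 3.98, and Hrb27C sites from 0.0604 to 45.4 with a median of 4.49. Hrb98DE sites ranged from 0.0622 to 22.7 with a median of 3.07. The median of gene medians over protein-coding targets was 2.31, with quartiles of 1.61 and 3.50. By its highest site Syp ranked 49, sqd 72, Hrb27C 76 and Hrb98DE 287 among targets with a site. A gene with more sites has more occasions for a high one. By median score they ranked 195, 303, 241 and 505. A score of at least 10 was reached by 27.0% of the sites in the 9 genes, against 14.5% of all other sites. It was reached by 30.7% of sites in Syp, 22.4% in sqd, 24.6% in Hrb27C and 34.6% in Hrb98DE. In Hrb98DE, 6 of these 9 sites lay inside a snoRNA gene described below, and outside it 3 of 16 sites (18.8%) reached 10.

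**Figure D2:**
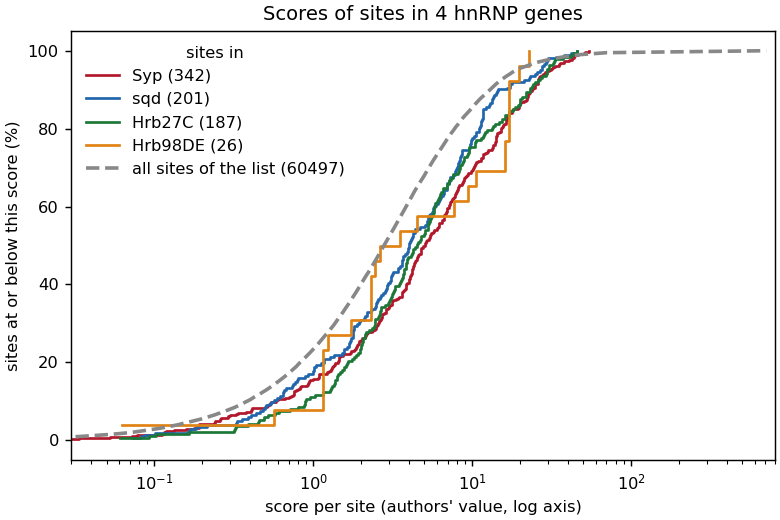
Cumulative share of sites (percent, vertical) at or below each score (authors' value, log axis, horizontal) for Syp, sqd, Hrb27C and Hrb98DE, with all 60497 sites dashed. The medians of the 4 genes lie between 3.07 and 4.99, to the right of the 2.78 of the whole list, and the line of Hrb98DE moves in a few large steps. The line of Hrb98DE includes sites inside snoRNA:Psi28S-3305a, and its 16 sites outside that snoRNA have a median of 2.31, below that of the whole list.

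Syp encodes the fly homologue of SYNCRIP (hnRNP Q and R in mammals), known for binding and regulating mRNAs at the neuromuscular junction and for timing the output of neural stem cells. All 342 of its sites lay on the plus strand of 3R, between 20778910 and 20810595. Stretches of over 1000 nt without a site divided them into 7 blocks. From 5′ to 3′ the blocks held 32, 25, 30, 14, 61, 5 and 175 sites. The last block, from 20806022 to 20810595, held 51.2% of the sites of the gene and all 10 of its highest-scoring ones. It was also the widest block, at 4574 nt, and was not the most crowded. It had 38.3 sites per kb, against 17.6, 46.8, 39.0, 157 and 50.6 in the first 5 blocks. Its median score was 7.80, against 3.86 over the sites 5′ of it. The lowest block median, 1.22, belonged to the first block, at 20778910 to 20780731. Between the outermost sites, the longest stretch without a site ran for 8245 nt after position 20783497. The outermost sites spanned 31686 nt of the 53998 nt of the gene. With the genomic span divided into 4 equal parts, the 5′ part held 0 sites.

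The highest score of Syp, 54.2, stood at position 20809147, in a cluster of 17 sites between 20809129 and 20809154 with a median score of 22.2. Clusters here are sites on 1 strand with at most 30 nt from each to the next. Within that cluster the scores had a pair of summits, 44.6 at 20809132 and 54.2 at 20809147, with no site on the bases between 20809136 and 20809146. Another short cluster of 8 sites, from 20808184 to 20808191, had a still higher median of 28.5 and a top score of 51.6. The cluster with most sites, 18 between 20798306 and 20798357 in the fifth block, was weaker, with a median of 4.32 and a top score of 24.7. Sites were most crowded in the 1000 nt that began at 20808184, which held 63. Whether the last block is the 3′ untranslated region or coding sequence was not analysed here.

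**Figure D3:**
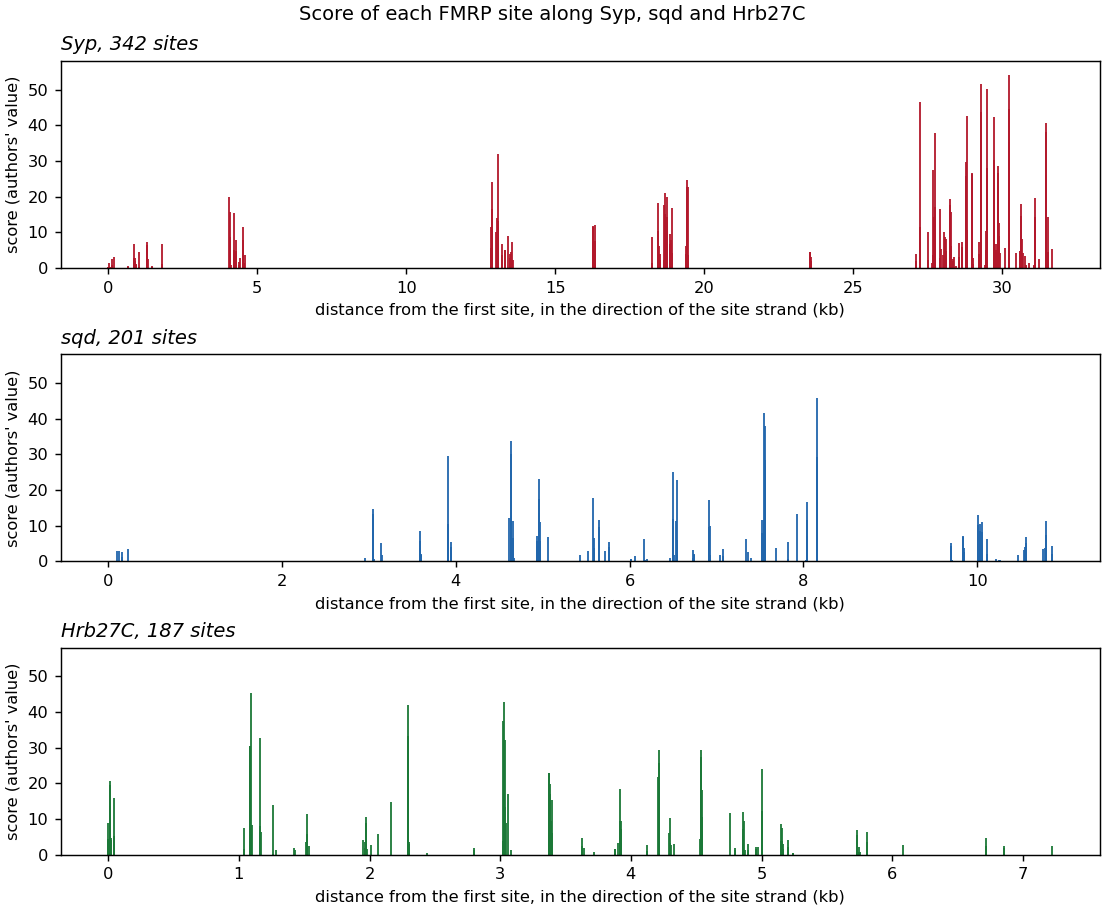
Score of each site (authors' value, vertical) in Syp, sqd and Hrb27C against the distance from the first site in the direction of the site strand (kb, horizontal). In Syp the 10 highest sites all stand in the last block of 4574 nt, in sqd they stand in the middle block, and in Hrb27C they stand in the first 3040 nt.

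sqd (squid, Hrp40) encodes an hnRNP A/B-type protein known for localising gurken mRNA in the oocyte. Its 201 sites all lay on the minus strand of 3R, from 13645995 down to 13635131, and formed 3 blocks by the same 1000 nt rule. The 5′ block held 7 sites, the middle block (13643046 down to 13637834) 146 and the 3′ block 48. A stretch of 2720 nt without a site separated the first block from the second. The middle block had a median score of 5.37 and all of the 10 highest sites, the 3′ block had a median of 3.32, and the 5′ block had one of 2.48. Per kb of block, the 5′, middle and 3′ blocks had 30.4, 28.0 and 41.1 sites. The most crowded 1000 nt, with 41 sites, began at 13635203 in the 3′ block. The highest score, 45.9, stood at 13637840, inside an unbroken run of 12 sites from 13637834 to 13637845, the longest run among the 9 genes. Along that run, read in rising coordinates, the scores were 14.1, 8.63, 14.2, 8.60, 25.5, 6.65, 45.9, 27.4, 29.2, 27.3 and 11.2, with the last site under 1. They rose unevenly to a summit and fell off again over the 5 bases on its 5′ side. The next summit, 41.7 at 13638444, belonged to a cluster of 14 sites between 13638436 and 13638469.

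Hrb27C (Hrp48) encodes an hnRNP A/B-type protein that acts with Squid on gurken mRNA and also regulates oskar mRNA. Its 187 sites lay on the plus strand of 2L between 6922768 and 6929994, over 7227 nt of the 11354 nt of the gene. They formed 1 block, with no stretch of over 1000 nt without a site between the outermost ones (the longest was 992 nt). Unlike in Syp, its highest sites were not at the 3′ end of the site range: 45.4 stood at 6923857, 42.8 at 6925794 and 41.8 at 6925063. With the genomic span divided into 4 equal parts from 5′ to 3′, these held 18, 77, 87 and 5 sites, and the second part held all of the 10 highest. The 3′ part had a median score of 2.44. The highest site lay in a cluster of 8 between 6923853 and 6923865, in which 4 neighbouring bases scored 30.5, 24.9, 30.6 and 45.4 and the other sites 3.58 to 8.27. The clusters with most sites in Hrb27C and sqd had 18 sites, as in Syp, from 6922768 to 6922815 in Hrb27C and from 13641022 to 13641062 in sqd, with medians of 4.26 and 6.58.

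Contacts in these 3 genes were mostly on neighbouring bases. A neighbouring base also held a site for 77.8% of Syp sites (exact 95% interval 73.0 to 82.1), 73.1% of sqd sites (66.4 to 79.1) and 81.3% of Hrb27C sites (74.9 to 86.6). These intervals overlap, cover counting error only and treat neighbouring sites as independent, which they are not. Pairs of neighbouring sites numbered 186 among the 342 sites of Syp, 104 among 201 in sqd and 109 among 187 in Hrb27C. The whole list had 29847 such pairs among its 60497 sites. Neighbouring sites were thus common over the list too, and the shares are not read as particular to these genes. Syp had 78 clusters, sqd 46 and Hrb27C 36. Clusters of at least 5 sites held 69.9% of the sites in Syp, 71.1% in sqd and 77.5% in Hrb27C, with median scores of 6.76, 5.65 and 5.27. Sites with no other within 30 nt numbered 19, 15 and 6, with median scores of 2.44, 1.68 and 4.19. Isolated sites thus had lower medians than crowded ones in each of the 3 genes. Of the 6 isolated Hrb27C sites, however, 1 scored 14.75 and another 11.6. The leading 25% of sites by score carried 66.0% of the summed score in Syp, 64.9% in sqd and 67.0% in Hrb27C. No whole-list value was set beside these cluster and score shares. In unbroken runs of at least 5 bases, the highest site lay on the 5′ side of the middle in 7 of 16 runs in Syp, 4 of 7 in sqd and 5 of 12 in Hrb27C. The whole list had 755 of 1884 such runs (40.1%).

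Hrb98DE (Hrp38) encodes a homologue of mammalian hnRNP A1 and A2/B1 that acts in splicing. Its 26 sites lay on the plus strand of 3R between 28601695 and 28605005. Of these, 13 lay in the second of 4 equal stretches of the span from 5′ to 3′. The other 13 lay in the last stretch, with 2670 nt between the groups. In the span of the gene lie 7 snoRNA genes of the pseudouridylation guide class, and 10 of the 26 sites were inside one of them, snoRNA:Psi28S-3305a, which is itself on the target list. The other 6 snoRNA genes held 0 sites. Reads of close snoRNA copies can be shared or lost in counting, so the assignment to this copy is uncertain. Whether these sites report the snoRNA or the Hrb98DE precursor RNA cannot be told apart here.

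Scores of Hrb98DE differed between those parts. Inside the snoRNA the median score was 16.1, with 4 neighbouring sites at 17.0 each (28601748 to 28601751) and a pair at 16.1 (28601769 and 28601770). The 3 sites just 5′ of the snoRNA stood at 2.29, 2.31 and 2.31. Outside the snoRNA 16 sites remained, with a median of 2.31, and apart from the run from 28604564 to 28604570 they scored 3.51 or less. The scores of that run were 4.49, 22.7, 19.6, 10.5, 2.62, 9.43 and 0.569, highest near the 5′ end with a lower second summit. The 4 sites from 28604948 to 28604951 all stood at 1.15. Neighbouring bases with scores within 1% of each other made up 9 of 19 such pairs in Hrb98DE (47.4%), against 8 of 186 in Syp, 1 of 104 in sqd and 3 of 109 in Hrb27C. In Hrb98DE such alike scores were found in 4 of 8 neighbouring pairs inside the snoRNA and in 5 of 11 outside it. In snoRNA spans of the whole list the share was 30.3% of 628 pairs, and elsewhere 6.77% of 29219. Counted without the snoRNA, Hrb98DE had 16 sites, close to the median of 16.5 over protein-coding targets.

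**Figure D4:**
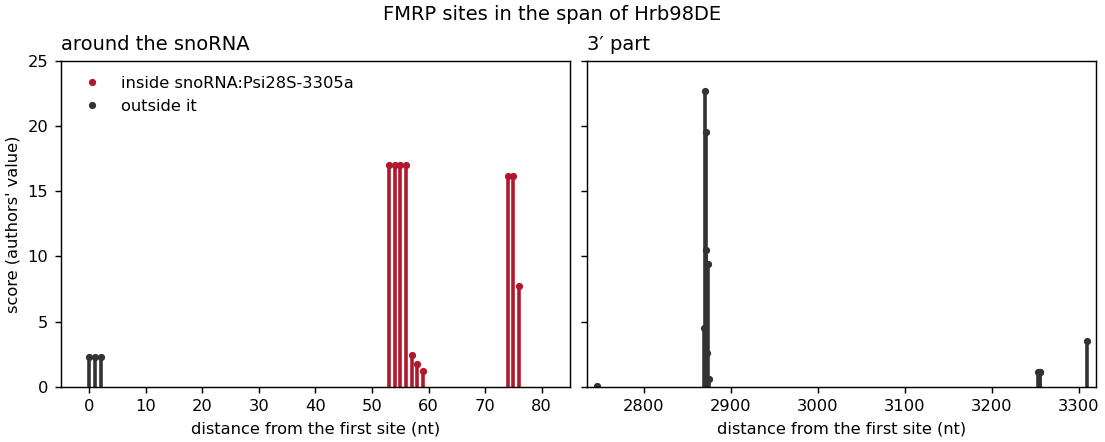
Score of each site (authors' value, vertical) in the span of Hrb98DE against the distance from its first site (nt, horizontal), around snoRNA:Psi28S-3305a (left) and in the 3′ part of the gene (right); red sites lie inside the snoRNA and black sites outside it. The snoRNA sites include flat steps at 17.0 and 16.1, and the 3′ part has a highest site of 22.7 and a flat step of 4 sites at 1.15.

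Hrb87F (Hrp36), the closest relative of Hrb98DE among these genes and likewise an hnRNP A1 and A2/B1 homologue, held 0 sites in 3686 nt and was not a target. It lies 10541 nt from sqd on 3R, with the genes rin and Rbp4 between them. Those 2 genes held 86 sites together. The 4 sites found within 1000 nt outside the span of sqd lay on the plus strand within rin, whereas the sites of sqd lay on the minus strand. The 8 sites within 1000 nt of Hrb98DE lay in its neighbour CG9986, on the same strand as those of Hrb98DE.

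The remaining members bind other kinds of RNA element. glo (Glorund, of the hnRNP F/H type), a repressor of nanos translation, had 1 site in 4215 nt, at 11816348 on the minus strand of 3R, with the lowest score of the 3 single sites described here. bl (Bancal, hnRNP K), whose mammalian homologue binds poly(C) stretches, had 1 site in 19304 nt, at 20603333 on the plus strand of 2R with a score of 5.02. heph (Hephaestus, the polypyrimidine tract-binding protein PTB) had 1 site in 168534 nt, at 31938470 on the plus strand of 3R with a score of 6.89. sm (Smooth, hnRNP L) had 0 sites in 113645 nt. All 3 single sites scored above the 2.78 median of the list. Of the 273 protein-coding genes with exactly 1 site in their span, 0 were on the target list, against 54.8% of those with 2 to 9 sites and 94.2% of those with 10 or more. The lists give no expression values, so an RNA that was scarce in the libraries and one that was present without contacts look alike for these 5 genes.

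Length alone did not order the family. heph and sm, the longest, are among 87 protein-coding genes with spans of 100000 nt or more, of which 41.4% were targets and 39.1% had 0 or 1 site. sqd, Hrb27C and bl belong to the class from 10000 nt to under 20000 nt, in which 24.6% of 965 genes had at least 10 sites and the highest count was 327. These 3 genes had 201, 187 and 1. Of the shortest class, under 5000 nt, 3.32% of genes had at least 10 sites, and Hrb87F and glo were among the 92.4% with 0 or 1.

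**Figure D5:**
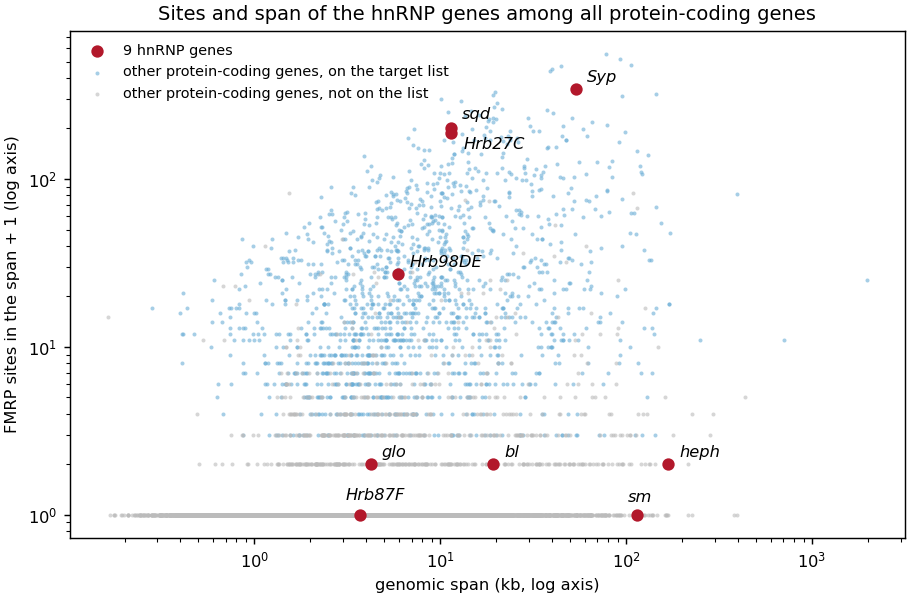
Sites in the gene span plus 1 (log axis, vertical) against genomic span (kb, log axis, horizontal) for the 9 hnRNP genes in red and all other protein-coding genes, blue when on the target list and grey when not. Syp, sqd and Hrb27C stand near the upper edge of the cloud at their lengths, and heph and sm, with the longest spans of the 9, stand at 1 and 0 sites.

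Other RNA-binding protein genes, from lists of related families, were counted in the same way. Of 12 further hnRNP-type genes, 4 were targets: ps (Pasilla, the Nova homologue) with 257 sites and a highest score of 66.4, Rox8, the TIA-1 homologue, with 15, msi (Musashi) with 10 and nonA-l with 8. The PCBP-type gene mub and the Musashi-type gene Rbp6 had 7 and 2 sites without being targets, and Rb97D, rump, caz, nonA, TBPH and CG30122 had 0. In ps, 2 of the sites were on the strand opposite to the other 255. Of 9 SR protein genes, 3 were targets: SC35 with 36 sites, tra2 with 12 and B52 with 8. SC35 had 10.03 sites per kb, between Hrb27C and Syp, and a median score of 16.7, above the median of each of the 9 hnRNP genes with a site. The other 6 SR protein genes had 0 sites. Of 14 further regulators of splicing and RNA fate, 3 were targets: the sex determination gene Sxl with 81 sites, Rbfox1 with 46 and the neuronal gene elav with 24. bru3 had 2 sites and the remaining 10 had 0. The shares of targets were thus 4 of 9, 4 of 12, 3 of 9 and 3 of 14, beside 11.2% of all protein-coding genes. The median numbers of sites were 1, 1, 0 and 0, beside 0. That 11.2% includes 10470 genes under 5000 nt, of which 5.60% were targets, against 24.0% to 41.4% in the longer classes. These lists too were chosen with earlier results of these data known, so nothing is read from the difference.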

How the data were processed

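The values come from 2 lists for the whole series. In the first, the authors deposited 1 nt sites with a strand, an unchanging state column and a score without a unit; the file name contains INnorm, so an adjustment for the input is possible but not stated. The second holds target names. The submitters' processing notes name STAR 2.7.3a, cutadapt 2.9, DESeq2, SAMtools 1.10 and UMI-tools, with no role. Site caller, build, use of the input, pooling of immunoprecipitates and target rule: not given in the sources used here. Members and lists were chosen with earlier results of these data known.

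Release 6 gene spans and names came from an NCBI RefSeq table. Targets matched by symbol (1753), synonym (65) or locus tag (11), and members by symbol (8) or synonym (1). The site list names no build, so no gene boundaries are printed: 1825 targets held a site as deposited, and 459 or 458 when sites were shifted by 100000 nt up or down. Positions count from 1 and may be off by 1, since 1 scaffold site would stand at 0.

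A site was counted in a gene if it lay in its span. The table gives no strand, so the strand was read from the sites; for Syp the plus strand was given. All members were named, and other genes by fixed lists, in which Hrb57A proved to be bl and was left out. Clusters join sites at most 30 nt apart. Blocks (gaps over 1000 nt), run shape and alike neighbouring scores were chosen after seeing the data. Python 3.11.15, pandas 2.3.3, numpy 2.4.6, scipy 1.17.1 and matplotlib 3.10.9 were used, and counting was tested on simulated data. No difference was tested, since no value per library was used. Base sequence, exons and proteins were not analysed here.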

Additional observations from a re-analysis of the deposited data

How the results depend on the processing

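Of 99 values recomputed under alternatives for 37 results, 83 stayed within 1.5 times the main value or within its 95% interval, and 16 moved. Many of the 83 could not move. These include the 25 values for sites of either strand and the 4 ranks among targets with at least 10 sites. Leaving out sites in other spans could change only Hrb98DE. The 83 is therefore not a measure of stability. Counting sites of either strand changed nothing, since no member had sites on both strands. Without sites in other spans, Hrb98DE had 16 sites in place of 26. Keeping only scores at or above the list's median left 125 sites in sqd, 123 in Hrb27C and 13 in Hrb98DE, the last in 3 clusters; by construction median scores were then higher, at 8.74 in Syp, 7.78 in sqd, 7.31 in Hrb27C and 16.1 in Hrb98DE. With gaps of 100 nt, clusters numbered 38 in Syp, 25 in sqd and 20 in Hrb27C. With the length between the outermost sites in place of the span, an alternative chosen after seeing the data, sites per kb were 10.8 in Syp, 25.9 in Hrb27C and 7.85 in Hrb98DE, so Hrb27C then stood above sqd, at 18.5. With at least 1 site as the rule, 7 members counted in place of 4. Alternatives on exonic length, transcript regions, sequence words and proteins were not run here. No paired analysis was possible because no values per library were used. Depth is unknown, so a count of 0 or 1 sites sets no limit on contacts.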
